A study of Capra hircus with 36 samples.

Results

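The miR-200 family comprises miR-200a, miR-200b, miR-200c, miR-141 and miR-429, a set of microRNAs (miRNAs) typical of epithelial cells. Its members were chosen by name alone, as both arms of these 5 precursors, and 9 of the 1391 mature miRNAs listed for goat met that rule. They were chi-miR-200b-3p, chi-miR-200b-5p, chi-miR-200a-3p, chi-miR-200a-5p and chi-miR-429-3p, and chi-miR-200c-3p, chi-miR-200c-5p, chi-miR-141-3p and chi-miR-141-5p. Another 4 miRNAs carry the same numbers under a name for sequences without a match in miRBase, and these were left out.

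The family is known for holding cells in the epithelial state. Its members repress ZEB1 and ZEB2, transcription factors that switch off E-cadherin, and are repressed by them in turn. The genes lie in a pair of clusters, the first of miR-200b, miR-200a and miR-429 and the other of miR-200c and miR-141, and the members also fall into a pair of seed groups that cut across the clusters, with miR-200b, miR-200c and miR-429 in the first and miR-200a and miR-141 in the other. In the RefSeq annotation of assembly ARS1.2, MIR429, MIR200A and MIR200B follow each other between TTLL10 and C16H1orf159, and MIR141 and MIR200C stand next to each other, with LOC108636064 on one side and PTPN6 on the other.

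Small RNA was sequenced from 3 Tibetan goats living at 3000 m and 3 Chuandong White goats living at 600 m, all adult females of about 3 years. Kidney, lung, liver, spleen, heart and longissimus muscle were excised from each goat and frozen, which gave 36 libraries, 3 for each of 12 combinations of tissue and altitude. The low-altitude goats were reared at home and the Tibetan goats grazed freely, so breed, rearing and altitude cannot be told apart, and "high altitude" and "low altitude" below name the populations. Whole pieces of tissue were used, in which fewer epithelial cells and less miRNA per epithelial cell cannot be told apart.

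The counts over all miRNAs summed to between 7108635 and 14407748 per library. Levels are given as counts scaled to that total (RPM), and 3 counts, taken as the limit that a count of 0 allows, equal 0.208 to 0.422 RPM. These limits cover counting error only, and take a listed 0 to be a measurement. Totals ran from 9643978 to 11265856 in kidney and from 9653266 to 10849570 in lung, so both tissues were sequenced to a like depth.

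The tissue labels were checked against miRNAs known to mark cell types, chosen by precursor. The cardiac miRNAs (miR-208 and miR-499) summed to 20426 ± 3154 RPM in heart (SD, n = 6), and the striated muscle miRNAs (miR-1, miR-133 and miR-206) to 485025 ± 65853 RPM in muscle. The liver miRNA miR-122 reached 50657 ± 65303 RPM in liver, from 6201 to 179959, and no more than 209 RPM in any kidney library. Leukocyte miRNAs, led by miR-142-5p, were highest in spleen with 43262 ± 18526 RPM. Of the miRNAs of ciliated airway cells, all 7 were higher in lung than in the average of the 4 tissues other than kidney. By the test described below, 8.2% of all miRNAs were higher. These 7 summed to 7093 ± 3883 RPM in lung and 18.9 ± 12.4 RPM in kidney. The miRNAs shared by kidney tubule and gut summed to 2996 ± 1398 RPM in kidney but to 18340 ± 5916 RPM in liver, so they did not single out kidney.

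The family was high in 3 of the 6 tissues. Without miR-200b, whose counts are described separately, its members summed to 7610 ± 2700 RPM in lung, 2638 ± 1314 RPM in kidney and 809 ± 380 RPM in liver (SD, n = 6 each). The sums were 42.5 ± 9.53 RPM in spleen, 19.6 ± 18.0 RPM in heart and 17.0 ± 11.6 RPM in muscle. The highest library of these last 3 tissues, at 55.2 RPM, stayed below the lowest liver library, at 388 RPM. In both kidney and lung most of the reads came from the 3p arms, and only chi-miR-200a-3p and chi-miR-141-3p had reads in all 36 libraries.

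**Figure D1:**
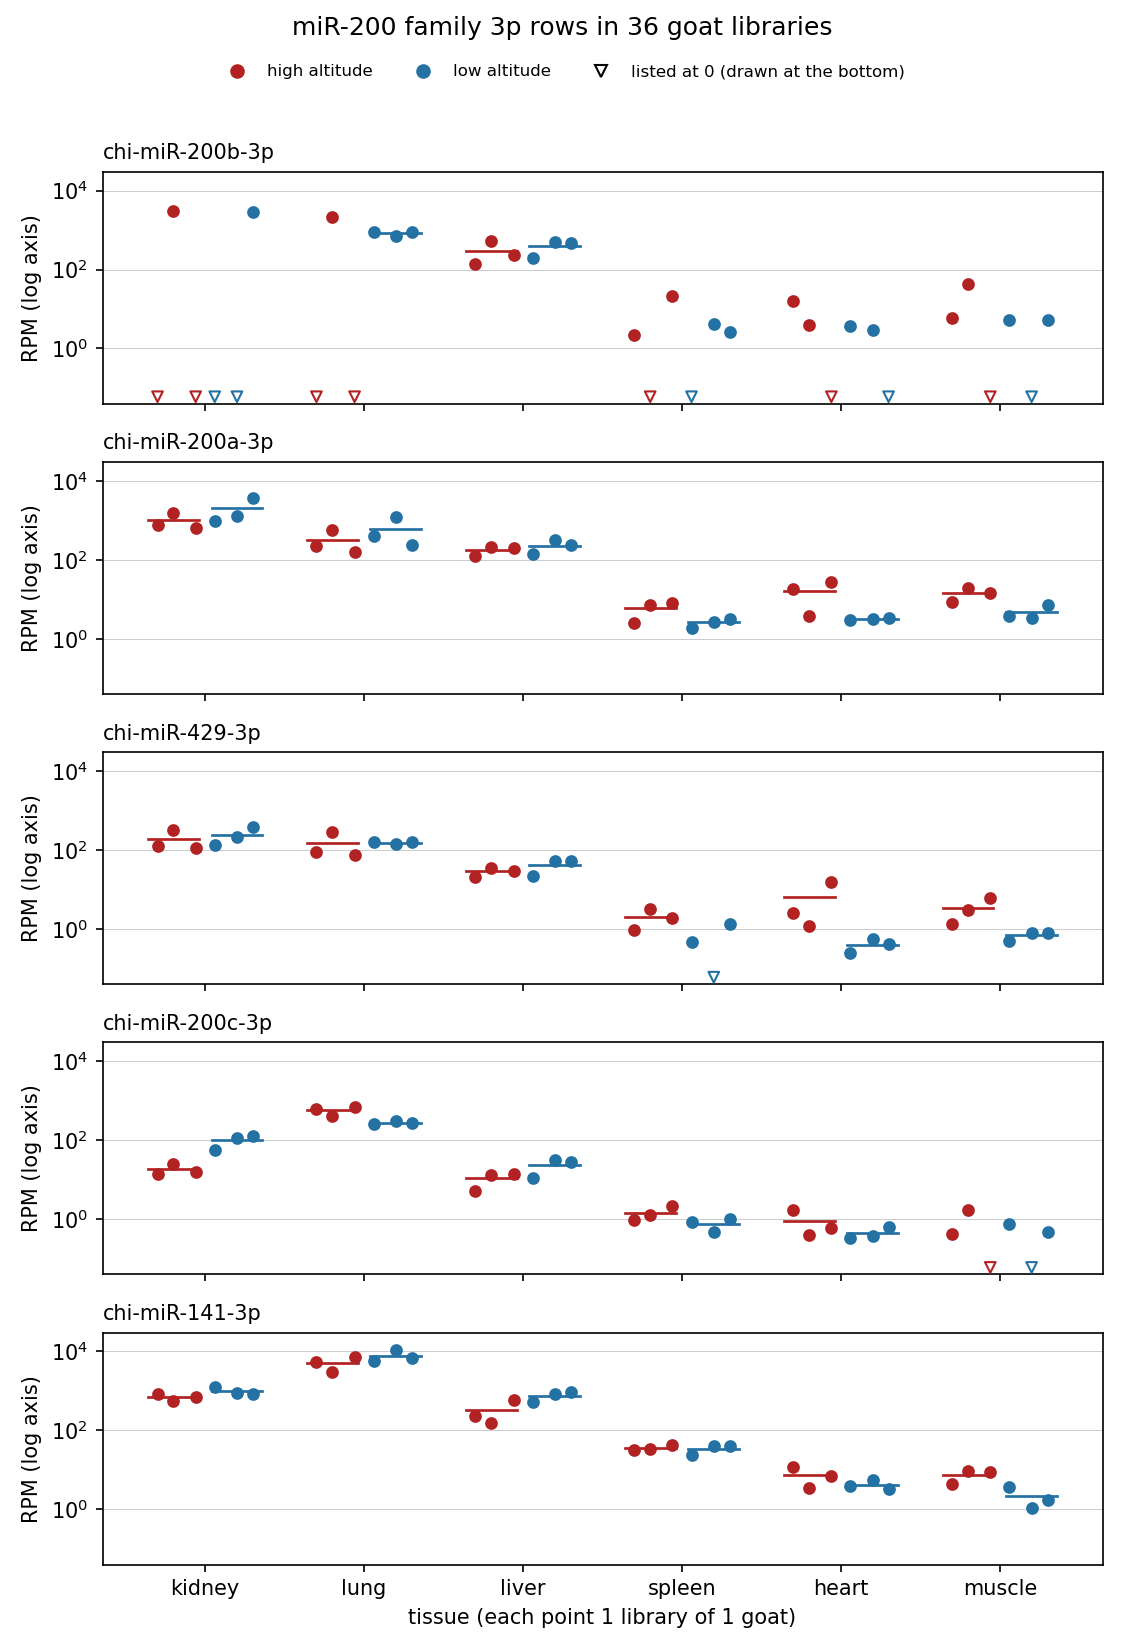
RPM of the 5 members' 3p arms on a log axis, 1 point per library, by tissue and altitude, with short lines for the mean of 3 libraries where none is listed at 0. Open triangles at the bottom are libraries listed at 0, which for miR-200b-3p number 12 of 36, while miR-141-3p and miR-200c-3p peak in lung and miR-200a-3p in kidney.

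Within the first cluster, miR-200b could not be read like its neighbours. Both of its arms were listed at 0 in 12 of the 36 libraries, 4 of kidney, 2 each of lung, heart, muscle and spleen, and 0 of liver. Of the 12, 7 were from high altitude and 5 from low altitude. In kidney, chi-miR-200b-3p had 29155 counts in high-altitude replicate 2 and 29357 counts in low-altitude replicate 3, and 0 in the other 4 libraries. Those 4 libraries still held 7275 to 14298 counts of chi-miR-200a-3p and 1266 to 2360 counts of chi-miR-429-3p, the neighbours in its cluster. In lung, high-altitude replicates 1 and 3 were at 0, beside 22156 counts in high-altitude replicate 2 and 8416, 7808 and 9305 counts in low-altitude replicates 1 to 3. The 2 lung libraries at 0 held 1567 and 2182 counts of chi-miR-200a-3p. Among the 1391 miRNAs, 176 had a library at 0 beside one of 100 counts or more in the same group. For 14 miRNAs the count beside the 0 had 5 digits or more. These included chi-miR-200b-3p, chi-let-7a-5p, chi-miR-30c-5p and chi-miR-99b-5p, so such zeros were not limited to miR-200b. No miRNA other than chi-miR-200b-3p was at 0 in exactly these 12 libraries. Whether these zeros are measurements was not tested, so a 0 of miR-200b is not read as absence. Its values are therefore given library by library.

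Where chi-miR-200b-3p was listed, it was the most abundant member of its cluster in some libraries. Its level was 3023 RPM and 2896 RPM in the 2 kidney libraries, and 2143, 869, 720 and 914 RPM in the 4 lung libraries. In liver, where all 6 libraries had reads, it ranged from 139 to 518 RPM with a mean of 342 ± 169 RPM (SD, n = 6). The listed libraries of heart, muscle and spleen stayed at or below 42.5 RPM, so they did not overlap with those of the former 3 tissues. Relative to chi-miR-200a-3p, its counts were 1.93-fold and 0.767-fold in the 2 kidney libraries and between 0.590-fold and 3.97-fold in the 4 lung libraries, so even without the libraries at 0 the balance between these neighbours varied widely.

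By its mean, the most abundant member in kidney with reads in every library was chi-miR-200a-3p, though chi-miR-141-3p exceeded it in 3 of 6 kidney libraries. Its kidney levels were 754, 1564 and 653 RPM at high altitude and 972, 1269 and 3777 RPM at low altitude. In lung they were 226, 580 and 154 RPM at high altitude and 390, 1221 and 230 RPM at low altitude. Taking libraries of the same number within a population as the same goat, kidney exceeded lung in 6 of 6 goats, although the ranges of the tissues overlapped across goats, and low-altitude replicate 3 was the highest kidney library and low-altitude replicate 2 the highest lung library. Liver followed with 204 ± 67.2 RPM, overlapping with lung, and heart (9.71 ± 10.2 RPM), muscle (9.37 ± 6.24 RPM) and spleen (4.22 ± 2.62 RPM) overlapped with each other and lay below every liver library.

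The remaining member of this cluster was chi-miR-429-3p. Its levels in kidney were 125, 324 and 114 RPM at high altitude and 131, 209 and 392 RPM at low altitude. Lung had 87.8, 285 and 75.8 RPM at high altitude and 160, 142 and 162 RPM at low altitude, which overlapped with kidney, and 5 of 6 goats had more in kidney. Both tissues lay above liver, at 35.4 ± 13.9 RPM, in every library. Heart, muscle and spleen had means of 3.38, 2.09 and 1.33 RPM.

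In the other cluster, of miR-200c and miR-141, the order of kidney and lung was the other way round. The most abundant member in lung, and of the whole family, was chi-miR-141-3p, ranked 29 of 1391 miRNAs by its mean level there. Lung had 5534, 2961 and 7251 RPM at high altitude and 5878, 10705 and 6869 RPM at low altitude, against 850, 547 and 685 RPM and 1282, 870 and 825 RPM in kidney. Every lung library was above every kidney library. Kidney (843 ± 247 RPM) and liver (546 ± 312 RPM) overlapped. Spleen, at 35.6 ± 7.10 RPM, was below every liver library and above every library of heart (5.83 ± 3.18 RPM) and muscle (4.81 ± 3.45 RPM), a step between spleen and heart that no other member showed.

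Its neighbour chi-miR-200c-3p was less abundant but had a like order. It reached 621, 418 and 706 RPM in lung at high altitude and 261, 298 and 267 RPM at low altitude. Kidney had 14.2, 25.6 and 15.8 RPM at high altitude and 57.3, 112 and 130 RPM at low altitude. Again every lung library was above every kidney library, while kidney overlapped with liver (17.0 ± 10.1 RPM). Spleen, heart and muscle had means of 1.12, 0.674 and 0.560 RPM, levels of at most 24 counts in any library, so their order is not resolved at this depth.

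The balance of the clusters differed between kidney and lung in every library. Of the family's reads without miR-200b, miR-200c and miR-141 held 90.9 ± 6.59% in lung, from 78.9% to 97.1%, and 38.8 ± 14.8% in kidney, from 18.5% to 54.6% (SD, n = 6 each). Spleen had a share near that of lung, with 87.1 ± 6.70%, and liver held 66.1 ± 14.1%. In heart and muscle the shares were 44.6 ± 16.5% and 31.5 ± 10.8%. The shares of spleen, heart and muscle rest on far fewer reads. Expressed as a ratio, there were 3.73 to 33.5 counts of miR-200c and miR-141 in lung for each count of miR-200a and miR-429, and 0.227 to 1.20 in kidney.

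**Figure D2:**
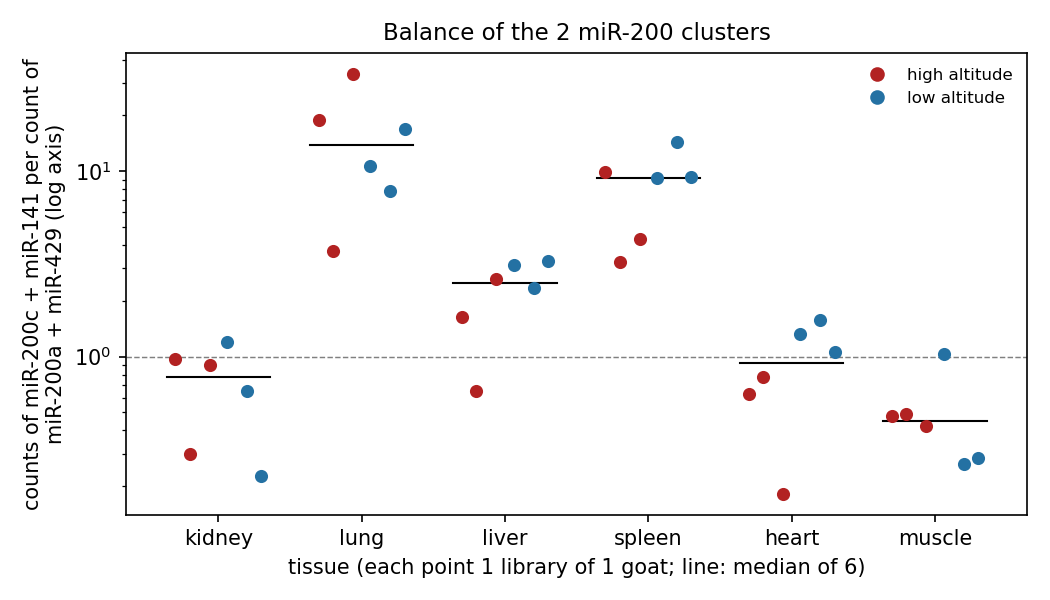
Counts of miR-200c and miR-141 per count of miR-200a and miR-429, both arms, on a log axis, 1 point per library and a line for the median of the 6 libraries of a tissue. Lung libraries lie between 3.73 and 33.5 and kidney libraries between 0.227 and 1.20, without overlap.

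The minor arms were listed at a low level, and not in a fixed proportion to their partners. In lung, chi-miR-200a-5p was listed at 25.9 ± 13.1 RPM and in kidney at 20.6 ± 13.8 RPM. By means this was the other way round from the 3p arm, but lung was higher in only 4 of 6 goats. The fitted log2 fold change of kidney over lung had the opposite sign to the means, at 0.14, and ran from -0.18 to 0.49 over the alternatives. The fit rescales the libraries by TMM factors, which RPM does not, and the part of this scaling was not tested. There was no call between the tissues, so their order is not resolved. For each count of chi-miR-200a-5p there were 61.6 to 82.5 counts of chi-miR-200a-3p in kidney and 7.21 to 32.5 in lung, with no overlap, and 27.1 to 74.9 in liver. The 5p arms of the other cluster were close to the limit of detection, with 2.80 ± 1.12 RPM of chi-miR-141-5p and 0.676 ± 0.309 RPM of chi-miR-200c-5p in lung. In heart, muscle and spleen chi-miR-200c-5p was at 0 in all 18 libraries.

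These tissue differences were tested over all 1391 miRNAs with the quasi-likelihood test of edgeR and Benjamini-Hochberg adjustment. A miRNA was called when the adjusted p was below 0.05 and the log2 fold change reached 1.5 in either direction. All 9 members were higher in kidney than in the average of heart, liver, muscle and spleen, against 9.63% of all miRNAs higher and 2.52% lower. Against liver alone, kidney was higher in 6 of 6 goats for both arms of miR-200a, chi-miR-429-3p and chi-miR-200c-3p, in 5 of 6 for both arms of miR-141, in 3 of 6 for chi-miR-200c-5p and in 2 of 6 for both arms of miR-200b. The log2 fold changes of the 3p arms were 6.44 for chi-miR-200a-3p (SE 0.26, adjusted p = 1.11e-17), 5.93 for chi-miR-429-3p, 5.20 for chi-miR-141-3p and 4.74 for chi-miR-200c-3p. In lung all 9 were higher than the same average too, against 8.2% of all miRNAs higher and 3.52% lower. There the order was chi-miR-200c-3p with 7.61 (SE 0.42, adjusted p = 6.76e-15), chi-miR-141-3p with 7.56 (SE 0.34, adjusted p = 4.8e-17), chi-miR-429-3p with 4.95 and chi-miR-200a-3p with 4.29. DESeq2 called 8 of 9 in both tissues, against 161 of all 1391 miRNAs in kidney and 169 in lung, in either direction. The member it left out was chi-miR-200c-5p, for which it gave no adjusted p. In kidney the call of chi-miR-200c-5p (2.80, adjusted p = 0.0107 by edgeR) was also lost without high-altitude replicate 3, without low-altitude replicate 1 or 2, in either population alone, and without the 12 libraries with miR-200b at 0.

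For miR-200b the same contrasts were unsteady. The log2 fold change of chi-miR-200b-3p was 5.47 in kidney (SE 1.36, adjusted p = 0.00389) and 4.91 in lung (SE 1.35, adjusted p = 0.0108). With the goat as a block it was 2.18 in kidney and 1.94 in lung, with an adjusted p of 1 in both by edgeR. Neither arm of miR-200b was called, which left 7 of 9 members, against 153 of all 1391 miRNAs in kidney and 123 in lung. In the high-altitude goats alone chi-miR-200b-3p was not called in kidney (adjusted p = 0.114) or lung (0.222), nor in the low-altitude goats alone (0.0501 and 0.0599, all by edgeR). Its log2 fold change was -2.12 in kidney without high-altitude replicate 2, -2.28 in kidney without low-altitude replicate 3, and -2.29 in lung without high-altitude replicate 2. Each of these fits leaves that population of that tissue with every library at 0, so its negative sign is not read as a lower level. Without the 12 libraries at 0 it was 6.79 in kidney and 5.52 in lung, but these libraries were picked by the counts of miR-200b itself, so those values are no test of it.

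Because liver also stood above heart, muscle and spleen, this contrast was added after the values were seen. All 9 members were higher in liver than in their average, against 8.91% of all miRNAs higher and 3.31% lower, from 3.03 for chi-miR-200c-5p to 5.46 for chi-miR-200b-3p on the log2 scale. With the goat as a block chi-miR-200c-5p lost its call (adjusted p = 0.079 by edgeR), and the other 8 were called, against 124 of all 1391 miRNAs. In the high-altitude goats alone 6 of 9 were called, against 103 of all 1391 miRNAs in either direction. In the low-altitude goats alone it was 7 of 9, against 127. In these 2 fits chi-miR-200b-3p was called in neither (adjusted p = 0.209 and 0.0642 by edgeR), and chi-miR-200c-5p in neither. DESeq2 did not call chi-miR-200c-5p either, nor did the fits without any goat other than high-altitude replicate 2. Without each goat in turn its log2 fold change ran from 1.60 to 3.31.

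Kidney and lung were then compared directly, and 3 of 9 members were called, against 11.8% of all miRNAs, 6.97% higher and 4.82% lower in kidney. In kidney chi-miR-200a-3p was higher by 2.15 on the log2 scale (SE 0.39, adjusted p = 0.000244), in 6 of 6 goats. The log2 fold change of chi-miR-141-3p was -2.36 (SE 0.49, adjusted p = 0.000804) and that of chi-miR-200c-3p was -2.87 (SE 0.62, adjusted p = 0.00143), both lower in kidney in 6 of 6 goats. The other 6 members did not pass, among them chi-miR-429-3p with 0.98 (SE 0.54, adjusted p = 0.273 by edgeR). Without the 12 libraries in which miR-200b is at 0, which leaves 2 kidney and 4 lung libraries, the fold changes were 2.15, -2.71 and -2.43. There 0 of 9 members were called (adjusted p = 0.171, 0.0569 and 0.15 by edgeR), against 27 of all 1391 miRNAs. In the low-altitude goats alone only chi-miR-200a-3p was called, against 83 of all 1391 miRNAs. In them chi-miR-141-3p had -2.06 (adjusted p = 0.0666), against -2.65 (adjusted p = 0.0183) in the high-altitude goats alone. In the same fits chi-miR-200c-3p had -0.91 (adjusted p = 0.605) in the low-altitude goats and -4.83 (adjusted p = 0.00149) in the high-altitude goats, all by edgeR.

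Tissue specificity was summarised by the tissue specificity index (TSI), which is 0 for equal levels in all tissues and 1 for reads in a single tissue. It was 0.963 for chi-miR-200c-3p and 0.956 for chi-miR-141-3p, both with lung on top, and 0.907 for chi-miR-200a-3p and 0.82 for chi-miR-429-3p, both with kidney on top. For chi-miR-200b-3p it was 0.77 with kidney on top by means, but 1 library of each population carries the kidney mean, the kidney median is 0 against 794 RPM in lung, and the index by medians is 0.908. Over all 1391 miRNAs the median was 0.858, and 51.5% exceeded 0.85, so the index of chi-miR-429-3p lay below the median. Among the 308 miRNAs with a mean of at least 10 RPM the median was 0.696, and 24.4% exceeded 0.85. By means the tissue on top was the same at both altitudes for all 9 members, which for miR-200b rests on 1 kidney library of each population.

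The miRNAs with the most similar profiles were sought by Pearson's r of log2(RPM + 1) over the 12 means of tissue and altitude, among 303 miRNAs outside the family. For chi-miR-200c-3p these were miR-205-5p (r = 0.978), miR-183-5p (0.977), miR-182-5p (0.971), miR-449a-3p (0.839) and miR-3431-5p (0.803). For chi-miR-141-3p they were miR-182-5p (0.950), miR-205-5p (0.937), miR-183-5p (0.913), miR-203-3p (0.870) and miR-3431-5p (0.857). The first 3 names recurred for chi-miR-200a-3p, with 0.891 for miR-182-5p, 0.878 for miR-205-5p and 0.839 for miR-183-5p, followed by miR-30a-5p (0.830) and miR-3959-3p (0.797). For chi-miR-200b-3p, whose means include the libraries at 0, they were miR-31-5p (0.816), miR-335-3p (0.773), miR-148a-3p (0.721), miR-215-5p (0.719) and miR-26a-5p (0.714). Within the family r was 0.988 between chi-miR-200a-3p and chi-miR-429-3p and 0.951 between chi-miR-200c-3p and chi-miR-141-3p, each a pair of cluster neighbours. For chi-miR-200b-3p it was 0.659 with chi-miR-200a-3p and 0.646 with chi-miR-429-3p, its neighbours, and 0.713 with chi-miR-141-3p and 0.611 with chi-miR-200c-3p of the other cluster, so it did not set the clusters apart. Across the clusters chi-miR-429-3p reached 0.915 with chi-miR-141-3p and 0.904 with chi-miR-200c-3p. On the RPM scale 3 of the 5 nearest names were the same for chi-miR-200c-3p, and 0 of 5 for the other 3 members. There chi-miR-141-3p was led by miR-34b-5p (0.990), chi-miR-200a-3p by miR-450b-3p (0.949), chi-miR-200b-3p by miR-10a-3p (0.906) and chi-miR-200c-3p by miR-211-5p (0.983), names picked after their values were seen. The 12 means share goats and libraries, so these values only describe the profiles.

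Other miRNAs known from epithelia (miR-203, miR-205, miR-375, miR-31, miR-182, miR-183 and miR-96, 11 mature forms) were set beside the family. In kidney 8 of 11 were higher than in the average of the 4 tissues other than lung, against 9.63% of all miRNAs, with a median log2 fold change of 3.02. In lung 8 of 11 were higher than this average, against 8.2%, with a median of 3.54, and in liver 8 of 11 were higher than in the average of heart, muscle and spleen, against 8.91%. Between kidney and lung 0 of 11 were called by edgeR, against 11.8% of all miRNAs. At an unadjusted p under 0.05 there were 3 of 11, and 357 of the 1391 miRNAs. Their sum was highest in liver, at 2063 ± 588 RPM, of which miR-31-5p alone gave 1779 RPM, and reached 1079 ± 589 RPM in lung and 385 ± 178 RPM in kidney.

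Altitude was compared within each tissue on the 3 high-altitude and 3 low-altitude libraries. By the quasi-likelihood test of edgeR with Benjamini-Hochberg adjustment 0 of 9 members were called in any of the 6 tissues, as were 0 of all miRNAs in heart, kidney, liver and lung, 0.0719% in muscle and 0.144% in spleen. At an unadjusted p under 0.05 there were 3 members in muscle, 2 in heart, 1 each in kidney and lung, and 0 in liver and spleen. Of all 1391 miRNAs these were 86 in muscle, 89 in heart, 64 in kidney, 66 in lung, 59 in liver and 80 in spleen. DESeq2, which called 179 miRNAs over the 6 tissues where edgeR called 3, made 4 calls on 3 members, chi-miR-200a-3p and chi-miR-429-3p in heart, chi-miR-200c-3p in kidney and chi-miR-200a-3p in muscle. Without high-altitude replicate 2, edgeR called chi-miR-200b-3p in lung with -15.90 (adjusted p = 0.00928), a fold fitted to 2 high-altitude libraries that are both at 0.

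In kidney the altitudes separated in RPM for both arms of miR-200c, but chi-miR-200c-5p had only 1, 0 and 1 counts at high altitude and 1, 3 and 2 counts at low altitude, which overlap as counts. The 3p arm, chi-miR-200c-3p, had 152, 247 and 176 counts at high altitude and 566, 1262 and 1316 counts at low altitude. Every low-altitude library was above every high-altitude one, as for 3.67% of all miRNAs in kidney, with 1.73% the other way round. The log2 fold change of high over low altitude was -2.33 (SE 0.36, adjusted p = 0.384 by edgeR), and DESeq2 gave -2.24 (adjusted p = 3.52e-16). Its adjusted p ranged from 3.52e-16 to 1 over the alternatives. Cluster neighbour chi-miR-141-3p overlapped between the altitudes in kidney, with -0.55 (SE 0.69, adjusted p = 1 by edgeR). Without each goat in turn it ran from -0.96 to 0.30, so its direction is not settled. Also overlapping was chi-miR-200a-3p, with -0.89 (SE 0.39, adjusted p = 0.959 by edgeR), or -0.54 without low-altitude replicate 3.

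In lung chi-miR-200c-3p went the opposite way, with 5998, 4321 and 7203 counts at high altitude and 2525, 3238 and 2724 counts at low altitude. Every high-altitude library was above every low-altitude one, as for 2.3% of all miRNAs in lung, with 5.97% the other way round, and the log2 fold change was 1.41 (SE 0.50, adjusted p = 0.832 by edgeR). Again chi-miR-141-3p overlapped between the altitudes, with -0.18 (SE 0.62, adjusted p = 1 by edgeR), and from -0.69 to 0.23 without each goat in turn. There were 7.08 to 10.3 counts of chi-miR-141-3p for each count of chi-miR-200c-3p in the high-altitude lungs and 22.5 to 35.9 in the low-altitude lungs, so the neighbours did not move in proportion.

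The altitudes separated in opposite directions in kidney and lung for 3 of the 1391 miRNAs, or 0.216%, which were chi-miR-200c-3p, chi-miR-125a-5p and chi-miR-148a-5p. The difference between the altitude effects of chi-miR-200c-3p, kidney minus lung, was -3.92 on the log2 scale (SE 1.20) and failed the correction in edgeR (adjusted p = 0.443), which called 0 of 9 members, 1 of them at an unadjusted p under 0.05 (60 of all 1391 miRNAs), and 0.0719% of all miRNAs. DESeq2 gave -3.61 and called it (adjusted p = 0.000885). In the test over all 6 tissues 0 of 9 members passed, against 0.216% of all miRNAs, and the 3 members at an unadjusted p under 0.05 (93 of all miRNAs) were chi-miR-200a-3p (adjusted p = 0.23 by edgeR), chi-miR-429-3p (adjusted p = 0.295) and chi-miR-200c-3p (adjusted p = 0.672). DESeq2 called these same 3, among 46 of all 1391 miRNAs.

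Sums of markers of other cell types were also compared between the lungs of the populations. The 11 other epithelial miRNAs, led by miR-205-5p, summed to 1022, 1776 and 1840 RPM at high altitude and 603, 544 and 691 RPM at low altitude, with 1 or 2 of the 11 at 0 in each library. The 17 mesenchymal miRNAs, of which miR-143-3p is by far the most abundant, summed to 161218, 173505 and 265909 RPM at high altitude and 306559, 321508 and 288935 RPM at low altitude, with 6 or 7 of the 17 at 0. In this list miR-199b-3p and both arms of miR-199c also combine 0 with high counts within a group. Neither sum overlapped between the populations in lung, the first being higher and the other lower at high altitude. Of their members, 0 of 11 and 0 of 17 were called by edgeR, beside 0 of the 1391 miRNAs tested. The unadjusted p of edgeR fell below 0.05 for 3 of the 11 and 0 of the 17, beside 66 of the 1391. The median log2 fold changes of the lists were 0.72 and -0.27. Ciliated cell miRNAs overlapped, from 3272 to 13017 RPM at high altitude and from 3057 to 9577 RPM at low altitude. In kidney the epithelial list overlapped, with 289, 390 and 215 RPM at high altitude and 275, 431 and 711 RPM at low altitude, and so did the mesenchymal list. Without overlap, the 6 striated muscle miRNAs, led by miR-133a-3p, summed to 1507, 1323 and 2084 RPM in kidney at high altitude and 181, 571 and 547 RPM at low altitude. The 6 cardiac miRNAs, led by miR-499-5p, had 72.6, 62.8 and 170 RPM against 4.05, 32.0 and 10.6 RPM in kidney. Of these 6, 2 were at 0 in all kidney libraries and 2 in all lung libraries. Over the 6 the median log2 fold change was 0.064 in kidney and 0 in lung. In both tissues 0 of 6 were called by edgeR, beside 0 of the 1391 miRNAs. In lung the cardiac sum was also higher at high altitude in every library, with 38.1, 20.3 and 105 RPM against 5.37, 18.4 and 10.5 RPM, and so was miR-122, with 72.7, 19.7 and 130 RPM against 13.0, 10.05 and 5.69 RPM. Their part in the difference of chi-miR-200c-3p was not tested.

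In heart and muscle, where the family is scarce, some members separated by altitude and the others overlapped. In heart chi-miR-200a-3p had 227, 47 and 313 counts at high altitude and 37, 34 and 41 counts at low altitude, and chi-miR-429-3p had 32, 15 and 180 counts against 3, 6 and 5. The groups did not overlap for either, as for 8.05% of all miRNAs in heart, with 4.03% the other way round, though high-altitude replicate 2 was close to the low-altitude libraries. The log2 fold changes were 2.15 (SE 0.69, adjusted p = 0.606 by edgeR) and 3.74 (SE 1.08, adjusted p = 0.484), and the latter was 2.09 without high-altitude replicate 3. In muscle chi-miR-200a-3p had 125, 246 and 181 counts at high altitude and 46, 46 and 86 counts at low altitude, with a log2 fold change of 1.69 (SE 0.51, adjusted p = 0.675). Muscle also separated chi-miR-429-3p, with 2.42 (SE 0.90, adjusted p = 0.736; 1.55 without high-altitude replicate 3), and chi-miR-141-3p, with 1.87 (SE 0.71, adjusted p = 0.742), as for 3.24% of all miRNAs, with 5.18% the other way round.

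The other epithelial miRNAs were scarce in these tissues and overlapped between the altitudes, with 15.8, 5.97 and 22.2 RPM against 6.80, 10.02 and 7.94 RPM in heart and 22.5, 53.9 and 24.2 RPM against 27.0, 12.5 and 20.3 RPM in muscle. The mesenchymal sum, carried by miR-143-3p, was higher at high altitude in every library of both tissues, with 188405, 123432 and 196285 RPM against 74992, 82911 and 63884 RPM in heart, and 60998, 32593 and 55790 RPM against 23902, 27714 and 29824 RPM in muscle. Over its 17 members the median log2 fold change was 0 in both tissues. By edgeR 0 of 17 were called, against 0 of all 1391 miRNAs in heart and 1 in muscle. At an unadjusted p under 0.05 there were 4 in heart and 3 in muscle, against 89 and 86 of all 1391. In heart the leukocyte list was also higher at high altitude in every library, with 3509, 2007 and 2819 RPM against 1926, 1886 and 1532 RPM, as were the ciliated list (6.88 to 17.5 RPM against 1.58 to 5.10 RPM) and the tubule and gut list (131 to 246 RPM against 99.2 to 117 RPM). In muscle the striated muscle list was lower at high altitude in every library, with 475529, 492116 and 361840 RPM against 515386, 553994 and 511286 RPM. Their part in the differences of the family was not tested.

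In liver the abundant members overlapped between the altitudes. There chi-miR-141-3p had 235, 152 and 601 RPM at high altitude and 524, 844 and 922 RPM at low altitude, and chi-miR-200c-3p had 5.09, 13.3 and 14.1 RPM against 11.2, 31.4 and 27.3 RPM. Their log2 fold changes were -0.92 (SE 0.71, adjusted p = 0.742 by edgeR) and -0.95 (SE 0.67, adjusted p = 0.726), and the former was -0.43 without high-altitude replicate 2 and -1.81 without high-altitude replicate 3. The low-altitude libraries were above the high-altitude ones for chi-miR-200b-5p and chi-miR-141-5p, as for 5.97% of all miRNAs in liver, with 2.37% the other way round, though chi-miR-141-5p had 2 to 15 counts. The 4 erythroid miRNAs, led by miR-486-5p, were also lower at high altitude in every liver library, with 343, 6388 and 4285 RPM against 9104, 9959 and 8658 RPM. However, miR-486-5p is itself listed at 0 beside high counts within a group in lung, and at 2.03 RPM in its lowest liver library, so this sum carries the same doubt as miR-200b. The cardiac sum was higher there, with 288, 228 and 188 RPM against 18.5, 146 and 19.9 RPM. However, 3 of its 6 miRNAs were at 0 in all liver libraries, and the median log2 fold change of the 6 was 0. By edgeR 0 of 6 were called, against 0 of all 1391 miRNAs. The part of the erythroid and cardiac lists in the differences of the 5p arms was not tested. In spleen 0 of 9 members separated by altitude, against 4.46% of all miRNAs with the high-altitude libraries above and 5.54% with them below.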

How the data were processed

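The authors prepared TruSeq small RNA libraries, called bases with CASAVA 1.8, mapped reads without mismatches to goat assembly ARS1 with Bowtie and quantified mature miRNAs with miRDeep2. They deposited whole-number counts per mature miRNA and library, not normalized, and every miRNA listed reaches at least 3 counts in some library. Totals are sums of these counts, and RPM was computed from them.

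Fits used edgeR 4.0.16 in R 4.3.3 (TMM, glmQLFit, glmQLFTest) on all 1391 miRNAs, with Benjamini-Hochberg adjustment. Tissue contrasts and the interaction used 1 fit of 12 groups, and altitude the 6 libraries of a tissue. The fits were tested on simulated data. Alternatives were DESeq2 1.42.0, RLE factors, filterByExpr, summed arms, goat or replicate number as block, single altitudes, 1 fit over all libraries, each goat left out, and, chosen after seeing the data, leaving out the 12 libraries with miR-200b at 0. The liver contrast was also added then.

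Tissues were sampled from the same goats, and equal numbers within a population are taken as the same goat, which the sample names do not say. Deviations of 2 tissues of a goat correlated by 0.0677 on average (30 pairs, -0.175 to 0.457, across 308 miRNAs, which are not independent). Between equal numbers of different goats the average was 0.0746, but that value compares the same tissue across populations. These values therefore cannot decide whether equal numbers mark the same goat. Members were picked by name and lists by precursor, but with earlier results of these data known. The named miRNAs (every member, list leaders and the 5 most similar profiles) were also chosen with these results known. Python 3.11.15, NumPy 2.4.6 and pandas 2.3.3 did the rest. Mature sequences were not used here.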

Additional observations from a re-analysis of the deposited data

Results flagged for a closer look

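For chi-miR-200c-3p, all 3 low-altitude kidneys were above all 3 high-altitude kidneys, while all 3 high-altitude lungs were above all 3 low-altitude lungs. This pattern held for 2 of 1391 miRNAs (0.144%), and an opposite separation in either direction for 3 (0.216%). The altitude effect in kidney minus that in lung was -3.92 on the log2 scale (SE 1.20, adjusted p = 0.443 by the quasi-likelihood test of edgeR with Benjamini-Hochberg adjustment), which fails the correction over 1391 miRNAs. Without each goat in turn it lay between -3.97 and -3.36, with an adjusted p between 0.697 and 1. With the goat as a block it was -3.87 (adjusted p = 0.77). Without the 12 libraries in which miR-200b is at 0 it was -2.76. That fit holds 1 high-altitude kidney, 1 low-altitude kidney and 1 high-altitude lung library, so other groups supply its spread. DESeq2 gave -3.61 (adjusted p = 0.000885).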

How the results depend on the processing

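The calls of chi-miR-200a-3p, chi-miR-429-3p, chi-miR-141-3p and chi-miR-200c-3p in kidney, lung and liver against the other tissues held under every alternative. Of the results for single members, 391 tissue results were the same, 36 were weaker and 6 reversed, and 158 altitude results were the same, 5 were stronger and 5 reversed. The same means an unchanged sign and call status, weaker a lost call and stronger a gained one. Since no member was called for altitude by edgeR in the first place, the same there means only an unchanged sign and no call. Leaving out the 12 libraries with miR-200b at 0, and the liver contrast, were chosen after seeing the data. At this depth the 5p arms of miR-200c and miR-141 rest on few counts. For the changes below the cause was not tested.

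Of all miRNAs, 169 were called in kidney over the other 4 tissues, but 112 with the arms summed (which leaves 909 to test), 103 in low-altitude goats alone and 85 without the 12 libraries. For lung the count of 163 became 104 with the arms summed, 99 in high-altitude goats alone and 95 without the 12 libraries. With the arms summed 5 of 5 precursors of the family were called in kidney, 5 in lung and 5 in liver, where 114 of the 909 tested were called. Kidney over lung gave 164, and 109 with the arms summed, 69 in high-altitude goats, 83 in low-altitude goats and 27 without the 12 libraries; the family's 3 became 1 in low-altitude goats and 0 without the 12 libraries. In liver 170 became 103 in high-altitude goats. The interaction gave 3, but 46 with DESeq2 (3 of the family) and 5 with filterByExpr. The kidney minus lung difference gave 1, but 25 with DESeq2 (1 of the family), 2 with RLE factors, 2 with filterByExpr and 0 with the arms summed. Altitude over the 6 tissues gave 3, but 179 with DESeq2 (4 of the family), 18 with filterByExpr and 54 with 1 fit over all libraries.

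Leaving out each goat in turn gave 109 to 130 calls for kidney over lung, 0 to 10 for the interaction, 0 to 3 for the kidney minus lung difference and 0 to 12 for altitude, of which 0 to 1 in the family. The log2 fold change of chi-miR-200b-3p then ran from -2.28 to 6.05 in kidney and from -2.29 to 5.52 in lung, and that of chi-miR-200b-5p from -0.0539 to 5.79 and from -0.17 to 5.06. For chi-miR-200b-3p, -2.28 and -2.29 came from fits that left a population of that tissue with every library at 0. In kidney over lung chi-miR-200b-3p ran from -7.26 to 1.03. For altitude chi-miR-141-3p ran from -0.96 to 0.30 in kidney and from -0.69 to 0.23 in lung, with 0.0526 in lung with 1 fit over all libraries, and chi-miR-200a-3p from -1.28 to 0.0144 in lung.

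With the goat as replicate block both arms of miR-200b lost their calls in kidney and lung (adjusted p = 0.365 and 0.297 for chi-miR-200b-5p, and 1 for chi-miR-200b-3p, by edgeR), chi-miR-200c-5p lost its call in liver, and 0 miRNAs passed for the kidney minus lung difference. The block changed no other call of the family. Across populations the numbers mark different goats, whose deviations correlated by 0.0746 on average (6 tissues, -0.281 to 0.438, 308 miRNAs), and with the number as replicate block 0 miRNAs were called for altitude.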
